A study of Mus musculus with 10 samples.

Results

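The BCL2 family was examined in whole lung of p53-null and wild-type mice through 19 array probes of 10 genes, printed in 46 of 43379 non-control spots. The members are Bax, Bbc3, Pmaip1, Bcl2, Bcl2l1, Mcl1, Bid, Bad, Bak1 and Bcl2l11, and they make up 19 of 41174 probes and 10 of 27670 named genes. A probe was taken as a member by its gene name, or by the current symbol of that name, with no use of its signal. The series held 5 arrays of p53-null lung and 5 arrays of wild-type C57BL/6J lung, with 1 RNA sample per array; the design text calls the 5 of each genotype biological replicates. All mice were males 8 weeks old that breathed a saline aerosol for 30 min before the lung was frozen, so both genotypes shared that exposure and neither was infected. The labels do not name the Trp53 allele of the p53-null mice.

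BCL2 family proteins decide whether the outer mitochondrial membrane is opened during apoptosis. Bax and Bak1 are the effectors that form pores and release cytochrome c. Bcl2, Bcl2l1 (BCL-XL) and Mcl1 hold the effectors and their activators in check, and the BH3-only proteins Bbc3 (PUMA), Pmaip1 (NOXA), Bcl2l11 (BIM), Bid and Bad either activate the effectors or neutralise the protective members. Bbc3, Pmaip1 and Bax are textbook transcriptional targets of p53, the transcription factor encoded by Trp53, and the comparison addresses how far their level in unchallenged lung differed with and without it.

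The sequences of 3 probes and 3 promoter stretches carry the comparisons below. The Bax probe A_51_P254541 spans 156 genomic bases on the minus strand of chromosome 7 (mm7, 41641827 to 41641982), more than its 60 bases, and so lies across an exon junction in the coding sequence. The Bcl2 probe A_51_P380013 (chromosome 1, 106612249 to 106612308, minus strand) lies in coding sequence of the BH1 region, and it is shown because it was the 1 member probe that passed the test. The Bcl2l1 probe A_52_P510877 (chromosome 2, 152570306 to 152570365, minus strand) lies in coding sequence, 485 bases from a second probe with a like difference. These 3 were read from the deposited array files, 5′ to 3′, with no part singled out.
Bax probe: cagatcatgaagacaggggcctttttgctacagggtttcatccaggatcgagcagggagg
Bcl2 probe: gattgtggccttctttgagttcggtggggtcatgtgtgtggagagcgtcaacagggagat
Bcl2l1 probe: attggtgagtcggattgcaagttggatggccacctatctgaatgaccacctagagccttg

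The promoter stretches, 60 bases each, come from RefSeq promoters of GRCm38.p6, and capitals mark matches to the p53 half-site consensus, which reads the same on both strands. Windows of 250 bases before to 50 bases after each start site were searched. Bax was the 1 of 9 searched member genes (1 of 15 promoters) with a match. Among 19 other p53 target genes, 8 had a match (9 of 26 promoters), against 2582 of 27025 genes (9.55%) and 2745 of 32851 promoters (8.36%) overall. Ccng1 and Cdkn1a, whose cyclin G1 and p21 proteins act in growth control, are shown beside Bax because their transcripts fell in the same lungs; they were chosen after their values were seen. Of the 8 genes with a match 3 passed as lower, as did 3 of the 11 without one, among them Eda2r and Psrc1. The rest of the 8 did not pass. They were Ei24 (-0.44 ± 0.14), Gtse1 (-0.32 ± 0.20), Polk (-0.12 ± 0.081), Mdm2 (0.05 ± 0.10) and Sesn1 (0.25 ± 0.10). A match describes these letters and was not tested as a binding site.
Bax, chr7:45467062-45467121, minus strand: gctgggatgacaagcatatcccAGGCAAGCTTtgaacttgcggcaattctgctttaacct
Ccng1, chr11:40755434-40755493, minus strand: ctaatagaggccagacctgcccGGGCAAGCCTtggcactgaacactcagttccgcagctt
Cdkn1a, chr17:29090884-29090943, plus strand: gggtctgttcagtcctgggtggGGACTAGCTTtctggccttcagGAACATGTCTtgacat

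Values below are log2 signals minus each array's own 75th percentile, so 0 is the 75th percentile of that array, and differences are the p53-null mean minus the wild-type mean ± SE, fitted by limma over 5 arrays of each genotype, with Benjamini-Hochberg adjusted p over all tested features, passing at 0.05. A gene is represented by its brightest probe; for the members every other probe is given beside it, and levels are not set against each other between genes, since probes differ in sensitivity. Between 71.4% and 84.0% of spots on an array were well above background, arrays correlated pairwise at 0.97 to 0.99, and with so few arrays the intervals are wide. All 10 members were well above background on all 10 arrays and none was saturated. Wild-type array 5 stood apart: a 10-spot Trp53 probe read -3.15, -2.99, -3.11, -3.00 and -2.66 on the p53-null arrays and -1.67, -1.64, -1.54 and -1.43 on wild-type arrays 1 to 4, but -2.22 on wild-type array 5, between the groups; whether the probe lies in the deleted part of the gene is not given by the labels. A second, brighter Trp53 probe, A_52_P781398, differed by 0.31 ± 0.28 (adjusted p = 0.504 over all probes) and was highest on wild-type array 5, at 1.24, so the direction of the Trp53 signal depends on the probe. Without that array 31.3% of genes passed the test, against 7.47% with it, so values without it are given as well. Skeletal muscle genes read high on p53-null arrays 4 and 5 and on wild-type array 2. Squamous epithelial markers also read high on p53-null array 5 and wild-type array 2, with mean centred scores of 4.10 and 5.33.

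Of the 10 members 1 passed the test, Bad, which was higher in p53-null lung by 0.45 ± 0.12 (adjusted p = 0.0498), and none was lower. That call rests on a probe the files place on the strand opposite to the other Bad probe, and whether it reads Bad mRNA could not be settled. The other Bad probe, the one annotated with a RefSeq mRNA of Bad, gave 0.42 ± 0.15. In the fit over all probes neither passed, with adjusted p = 0.0508 for the first and 0.116 for the other. Over all 21122 tested genes, 1578 passed (7.47%), 968 higher (4.58%) and 610 lower (2.89%), so 1 of 10 is near the share of all genes. The median difference of the members was 0.018, against 0.050 for all tested genes. No member's groups were fully separated at gene level; such separation was seen for 9.31% of genes, with p53-null lung higher for 5.43% and lower for 3.88%.

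**Figure D1:**
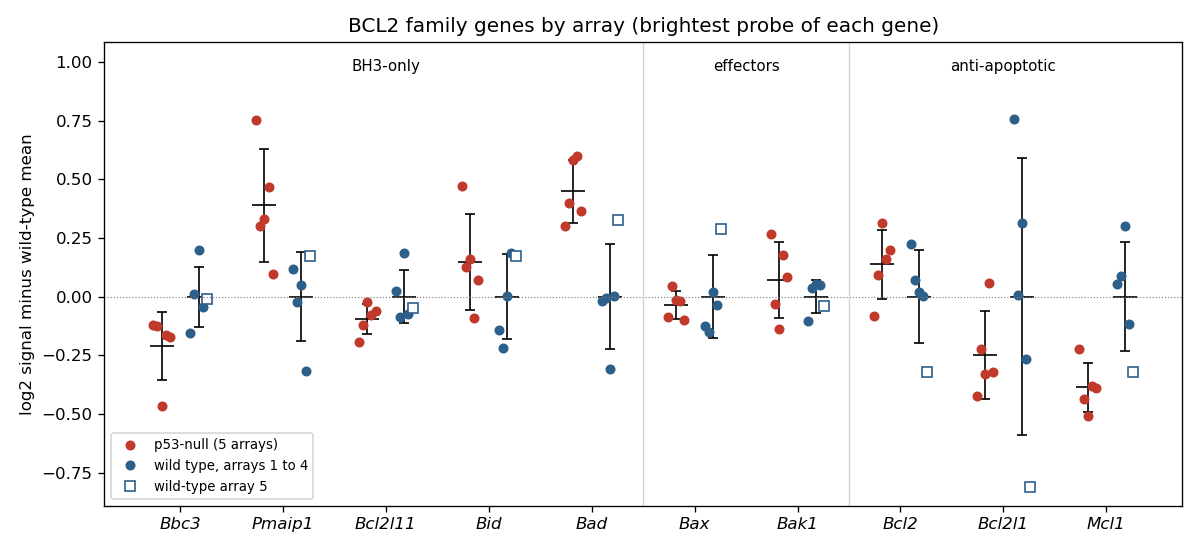
Log2 signal of the brightest probe of each member on each array, minus that gene's wild-type mean, with p53-null arrays (red) left of wild-type arrays (blue; open square, wild-type array 5); horizontal marks and bars are the group mean and SD, n = 5. For Bad and Pmaip1, 4 p53-null arrays lie above all wild-type arrays, and 4 lie below all of them for Mcl1, while Bax values of both groups run together.

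Bbc3, the BH3-only protein PUMA, was read by 1 probe on chromosome 7 (mm7, 14080459 to 14080518, plus strand). It read 2.65, 2.65, 2.30, 2.61 and 2.60 on p53-null arrays 1 to 5, against 2.61, 2.78, 2.97, 2.73 and 2.76 on wild-type arrays 1 to 5. A total of 3 p53-null arrays lay below every wild-type array and p53-null array 3 was the lowest. The difference was -0.21 ± 0.095 (95% interval -0.42 to 0.0043, adjusted p = 0.189) and was not past the threshold; -0.21 is 0.865 times the wild-type level. Leaving out wild-type array 5 gave -0.21 ± 0.10 (adjusted p = 0.141). Removing each array's trend with probe GC content gave -0.41 (adjusted p = 0.144). With both changes, a setting chosen after seeing the data, Bbc3 was lower by -0.52 ± 0.11 (adjusted p = 0.0128) and passed.

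Pmaip1, the BH3-only protein NOXA that binds MCL1, was read by 1 probe on chromosome 18. Its values were 1.07, 0.62, 0.65, 0.79 and 0.42 on p53-null arrays, against 0.44, 0.30, 0.37, 0.0046 and 0.49 on wild-type arrays. Of 5 p53-null arrays 4 exceeded every wild-type array. The difference was 0.39 ± 0.14 (95% interval 0.086 to 0.69, adjusted p = 0.101), or 1.31 times the wild-type level, and was not past the threshold. Without wild-type array 5 it was 0.43 ± 0.14 (adjusted p = 0.0460) and passed.

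Bax was read by 10 spots per array, whose SD ran from 0.015 to 0.078. The deposited intensity of its probe was 5435, 7171, 7354, 6997 and 6113 on p53-null arrays and 7897, 7345, 7801, 8859 and 6010 on wild-type arrays. After scaling these became 0.96, 1.09, 1.03, 1.03 and 0.95 in p53-null lung, against 0.92, 0.90, 1.07, 1.01 and 1.34 in wild-type lung. The groups overlapped, and wild-type array 5 was the highest of the 10. The difference was -0.03 ± 0.093 (95% interval -0.24 to 0.17, adjusted p = 0.849). A fall in p53-null lung beyond 0.24 on the log2 scale lies outside the interval of this fit, a bound that does not carry over to the GC-adjusted fits below. Without wild-type array 5 it was 0.04 ± 0.063 (adjusted p = 0.686). With the GC trend removed it was -0.21 ± 0.088 (adjusted p = 0.188), and with both changes -0.24 (adjusted p = 0.0675).

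These 3 can be set beside other p53 targets read on the same arrays. Of 26 such genes 7 were lower and none higher, against 2.89% and 4.58% of all genes, with a median of -0.21, against 0.050 for all tested genes. Without wild-type array 5, 10 were lower and 3 higher, against 14.3% and 17.1% of all genes, and without the 3 arrays with skeletal muscle genes 0 passed, a setting in which 10 of all genes did. Psrc1, a spindle-associated gene, fell by 1.62 on the log2 scale (SE 0.13, adjusted p = 4.53e-04), with -1.10 ± 0.12 and -0.77 ± 0.18 on its other probes, and Eda2r, a receptor of the tumour necrosis factor receptor family, was lower by -2.62 ± 0.22 (adjusted p = 4.99e-04), with 4 of 5 p53-null arrays well above background, so the size rests partly on 1 array that was not. Aen, an apoptosis-enhancing nuclease, was lower by -0.58 ± 0.079 (adjusted p = 0.00941) on a probe that the files place on chromosome 4, and by -0.49 ± 0.10 and -0.31 ± 0.069 on those placed on chromosome 7. Zmat3, an RNA-binding zinc finger gene, was lower by -0.63 ± 0.096 (adjusted p = 0.0126). Cdkn1a, whose promoter stretch is printed above, read 1.38, 1.44, 1.11, 1.48 and 1.29 on p53-null arrays, against 2.67, 2.40, 3.02, 2.09 and 1.85 on wild-type arrays, with no overlap (-1.07 ± 0.20, adjusted p = 0.0233). Ccng1 was lower by -0.80 ± 0.14 (adjusted p = 0.0180), and its other probe gave -0.78 ± 0.12. The 95% interval of Cdkn1a, -1.52 to -0.61, does not reach that of Bax or Bbc3. Intervals of some other called targets, such as Aen (-0.76 to -0.41 on its brightest probe), do reach that of Bbc3. The difference between genes itself was not tested.

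Bad, the BH3-only protein whose binding to BCL-XL is set by phosphorylation, was the gene name of the probe that passed. Its brightest probe, A_52_P614762, read -2.89, -2.80, -2.61, -2.59 and -2.83 on p53-null arrays, against -3.21, -3.20, -3.50, -3.19 and -2.87 on wild-type arrays. The p53-null arrays, 4 of them above all wild-type arrays, overlapped the other group only at wild-type array 5. The difference was 1.37-fold. The files place this probe on the minus strand of chromosome 19 (6770968 to 6771027), whereas the other Bad probe, A_51_P419364, is on the plus strand (6761992 to 6762051), 8916 bases away. A_51_P419364 is annotated with a RefSeq mRNA of Bad, and A_52_P614762 with a sequence outside RefSeq. Which of the 2 reads Bad mRNA was not tested. That second probe read -4.34, -3.89, -3.82, -4.06 and -3.96 in p53-null lung, against -4.51, -4.55, -4.61, -4.58 and -3.91 in wild-type lung, with wild-type array 5 far above the other 4. It gave the difference stated above, so both probes differed in the same direction. Only the minus-strand one, the brighter of the 2, entered the gene-level fit, so the other could not pass there. In the fit over all probes neither passed, and the minus-strand one had adjusted p = 0.0508. Without wild-type array 5 both passed, at 0.53 ± 0.098 (adjusted p = 0.0048) and 0.55 ± 0.10 (adjusted p = 0.0054). The call of Bad held in 6 of 28 alternative settings, with values from 0.36 to 0.56, all above 0. The 28 are not all independent: the series' value table holds the same intensities, so its call was fixed, and scan day as a block amounts to leaving out wild-type array 3. On the slide that held both genotypes the p53-null array read -2.80 and the wild-type array -3.19, and slide as a block gave 0.39 (adjusted p = 0.782), a fit that rests on that 1 pair. Within the lower of 2 slide number ranges, 4 p53-null arrays against 3 wild-type arrays, Bad differed by 0.36 (adjusted p = 0.370).

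Bid, which is cut by caspase 8 and links death receptors to mitochondria, had 1 probe, which read -0.71, -1.05, -1.02, -1.27 and -1.11 in p53-null lung, against -1.32, -1.40, -1.18, -0.99 and -1.01 in wild-type lung. The groups overlapped and the difference was 0.15 ± 0.12 (adjusted p = 0.471), or 0.19 ± 0.13 without wild-type array 5. Bcl2l11, the BH3-only protein BIM that limits lymphocyte number, differed by -0.10 ± 0.076 (adjusted p = 0.445) on its brightest probe, with 1.51 to 1.68 in p53-null lung and 1.62 to 1.89 in wild-type lung, and by -0.11 ± 0.075 without wild-type array 5. A second Bcl2l11 probe, A_51_P484880, gave -0.08 ± 0.13 (adjusted p = 0.726). The third, A_52_P348214, was well above background on 1 p53-null and 2 wild-type arrays and was the 1 member probe left untested.

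Bak1, the second pore-forming effector, read 0.94, 0.64, 0.53, 0.85 and 0.75 in p53-null lung, against 0.57, 0.71, 0.72, 0.72 and 0.63 in wild-type lung. The p53-null arrays were spread on both sides of the wild-type ones, with a difference of 0.07 ± 0.09 (95% interval -0.13 to 0.27, adjusted p = 0.652), or 0.06 ± 0.092 without wild-type array 5. Its other probe, A_52_P225207, ran from -2.29 to -0.62 in p53-null lung and from -2.41 to -0.69 in wild-type lung and gave -0.28 ± 0.39 (adjusted p = 0.694). Neither effector was past the threshold.

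**Figure D2:**
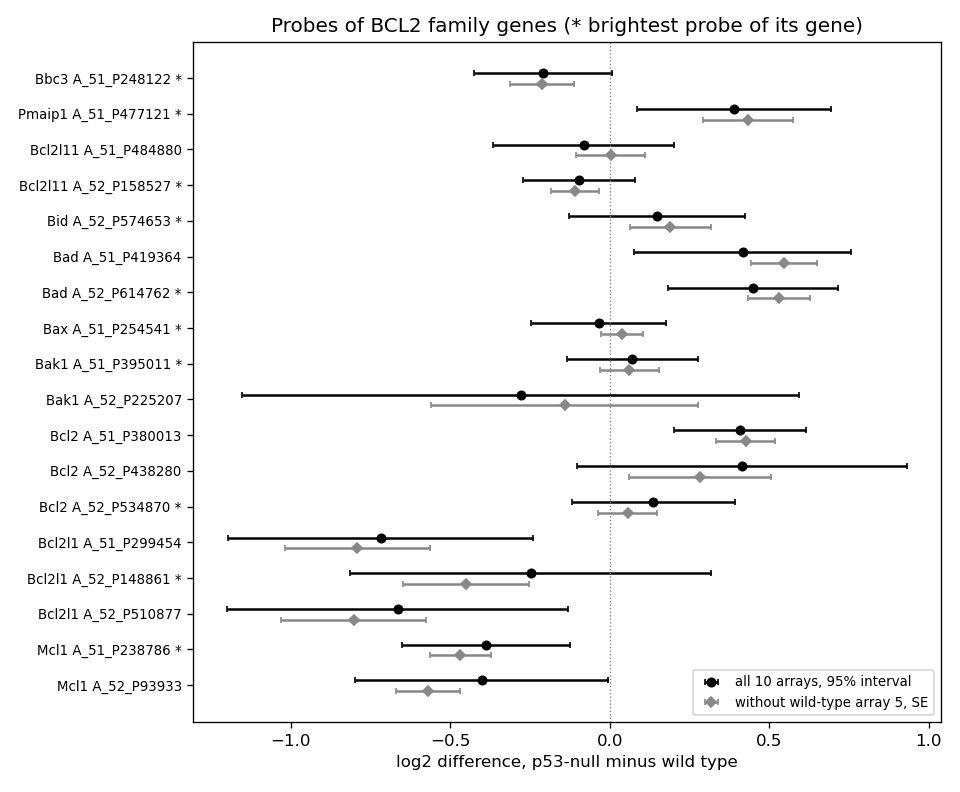
Log2 difference, p53-null minus wild type, of the 18 tested member probes, ordered by role; black circles with bars give the fit of all 10 arrays with its 95% interval, grey diamonds with bars the fit without wild-type array 5 with its SE. Without that array the Bcl2l1 and Mcl1 probes lie further to the left and the Bad probes further to the right.

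When each probe was tested singly, 1 of 18 tested member probes passed, against 2247 of 31588 probes overall (7.11%; 1266 higher, 4.01%). It was the BH1-region probe of Bcl2, the founding anti-apoptotic member that keeps mature lymphocytes alive. It read 0.13, -0.05, -0.06, -0.13 and 0.03 on p53-null arrays, against -0.27, -0.57, -0.60, -0.33 and -0.35 on wild-type arrays. On the 1 slide that held both genotypes the p53-null array read -0.05 and the wild-type array -0.33. All 5 p53-null arrays lay above all 5 wild-type arrays, a separation that 2 of 18 member probes and 9.15% of all probes showed in either direction (4.87% higher and 4.28% lower in p53-null lung). The difference was 0.41 ± 0.093, or 1.33-fold (adjusted p = 0.0343), and 0.43 ± 0.094 without wild-type array 5 (adjusted p = 0.0099). With single arrays omitted in turn, no member probe passed in 8 of 10 fits, and this one did not pass once the GC trend was removed.

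The other Bcl2 probes lay 3′ of it. A_52_P438280, 1600 bases further, read -2.91, -3.14, -2.87, -3.17 and -2.67 in p53-null lung, against -2.87, -3.69, -3.64, -2.75 and -3.89 in wild-type lung. It gave the same difference with wider spread, 0.41 ± 0.23 (adjusted p = 0.279). A_52_P534870, another 172431 bases further along the gene and printed in 10 spots, is the brightest of the 3 and stands for Bcl2 at gene level. It read 0.44, 0.61, 0.83, 0.68 and 0.72 in p53-null lung, against 0.75, 0.59, 0.54, 0.52 and 0.20 in wild-type lung, and differed by 0.14 ± 0.11 (adjusted p = 0.469), or 0.06 ± 0.091 without wild-type array 5 (adjusted p = 0.674). The rise of Bcl2 was thus past the threshold on 1 of 3 probes, and not on the one with the most spots.

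**Figure D3:**
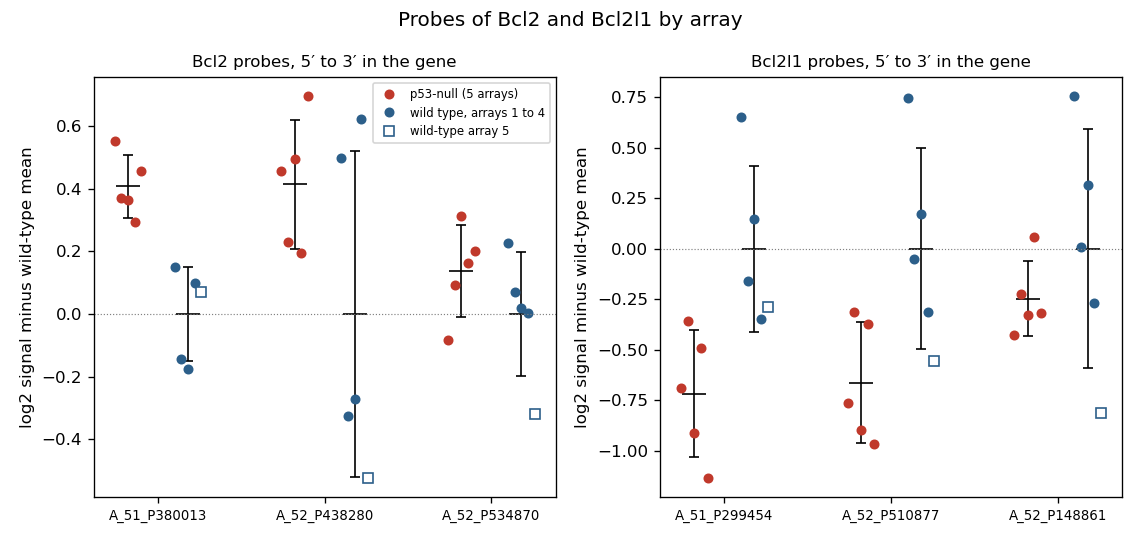
Log2 signal of each Bcl2 probe (left) and Bcl2l1 probe (right) by array, minus the probe's wild-type mean, in 5′ to 3′ order along the gene, with p53-null arrays left of wild-type arrays and mean and SD bars (n = 5). The groups are apart for the first probe of each gene and overlap for the last, where wild-type array 5 is the lowest array.

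Lymphocytes and neutrophils express genes of the BCL2 family, not all of them the same ones, and their markers differed between the same arrays. The 7 B cell markers, all detected, had mean centred scores of 0.28 to 1.32 in p53-null lung and -1.31 to -0.24 in wild-type lung, and 6 of 7 passed as higher. The 11 T and NK cell markers scored 0.09 to 0.57 in p53-null lung and -0.69 to 0.05 in wild-type lung, with 5 passing as higher. Neutrophil markers scored 0.06 to 1.41 in p53-null lung and -0.97 to -0.38 in wild-type lung, with 7 of 11 higher. Fibroblast markers scored -0.38 to -0.16 in p53-null lung and 0.14 to 0.36 in wild-type lung, with 4 of 7 lower. Lung endothelial markers scored -0.22 to -0.02 in p53-null lung and 0.02 to 0.25 in wild-type lung, with 1 of 6 lower. Of 6 macrophage markers 1 was higher and 1 lower, and none of 8 lung epithelial markers passed. In whole lung more cells of a type and more RNA per cell cannot be told apart, and the part of these markers in any member's difference was not tested.

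**Figure D4:**
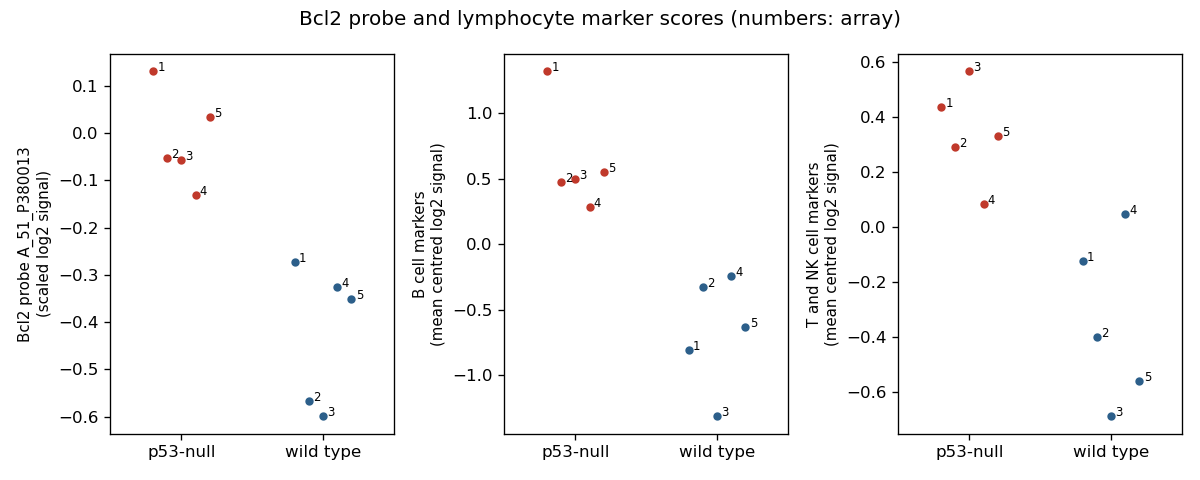
Scaled log2 signal of the Bcl2 probe A_51_P380013 (left) and mean centred log2 signal of B cell markers (middle) and of T and NK cell markers (right) on each array, p53-null left of wild type, with points numbered by array. In all 3 panels the p53-null arrays lie above the wild-type arrays, and array 1 is the highest p53-null array for the Bcl2 probe and the B cell markers.

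Bcl2l1 encodes BCL-XL, which protects epithelial, erythroid and many other cells. Both probes nearest the 5′ end of the gene gave negative differences that did not pass the test. A_51_P299454 read -2.99, -2.66, -3.21, -2.79 and -3.44 on p53-null arrays, against -1.65, -2.46, -2.15, -2.65 and -2.59 on wild-type arrays. Every p53-null array lay below every wild-type array, although p53-null array 2 and wild-type array 4, which shared a slide, nearly met. The difference was -0.72 ± 0.22 (adjusted p = 0.0683), 0.608 times the wild-type level.

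The neighbouring probe A_52_P510877 read -1.57, -1.12, -1.71, -1.18 and -1.78 in p53-null lung, against -0.06, -0.86, -0.64, -1.12 and -1.36 in wild-type lung, and differed by -0.66 ± 0.24 (adjusted p = 0.111). Without wild-type array 5 both passed, at -0.79 ± 0.23 (adjusted p = 0.0292) and -0.80 ± 0.23 (adjusted p = 0.0279). The third and brightest probe, A_52_P148861, 49039 bases 3′ of the first, read 1.12, 1.32, 1.22, 1.61 and 1.23 in p53-null lung, against 2.30, 1.56, 1.86, 1.28 and 0.74 in wild-type lung. Its wild-type arrays spanned more than its p53-null arrays, its spots agreed within 0.039 to 0.12 on each array, and it gave -0.25 ± 0.26 (adjusted p = 0.571). It was -0.45 ± 0.20 without wild-type array 5 (adjusted p = 0.118) and -0.06 without wild-type array 1 (adjusted p = 0.891). Wild-type array 1 was the highest of the 10 on all 3 Bcl2l1 probes.

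Mcl1, the short-lived anti-apoptotic member on which neutrophils depend, was read by 2 probes on chromosome 3. A_51_P238786 (95536882 to 95536941, plus strand) read 4.68, 4.47, 4.40, 4.53 and 4.52 in p53-null lung, against 4.96, 4.99, 5.21, 4.79 and 4.58 in wild-type lung. Of 5 p53-null arrays 4 lay below all wild-type arrays, and the difference was -0.39 ± 0.12 (95% interval -0.65 to -0.13, adjusted p = 0.0705). A_52_P93933 read 2.47, 2.13, 2.08, 2.16 and 2.21 in p53-null lung, against 2.76, 2.66, 2.97, 2.73 and 1.94 in wild-type lung, where array 5 was the lowest of all 10 (-0.40 ± 0.18, adjusted p = 0.180). Without wild-type array 5 both passed, at -0.47 ± 0.095 (adjusted p = 0.0072 over genes) and -0.57 ± 0.10 (adjusted p = 0.0038 over probes). The value was below 0 in all 28 alternative settings and passed in 4. The neutrophil marker score of the same arrays, given above, was higher in p53-null lung. Of its 11 genes 7 passed as higher, while Ltf (-0.17 ± 0.23) and Lcn2 (-0.32 ± 0.14) gave values below 0. The relation of these markers to Mcl1 was not tested.

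On 7 of the 18 tested member probes wild-type array 5 was the wild-type array closest to the p53-null mean. Without it 3 of 10 member genes passed, 2 higher (Pmaip1 and Bad) and 1 lower (Mcl1), against 31.3% of all genes, 17.1% higher and 14.3% lower. Likewise 8 of 18 probes passed, 4 higher and 4 lower, against 30.7% of all probes, 16.4% higher and 14.3% lower. Neither share of members was tested against its background.

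The remaining BCL2 family genes on the arrays were 13, of which 12 were tested and 1, Bcl2a1b, was higher in p53-null lung. That 1 of 12 is near the 7.47% of all genes called, 4.58% higher. Bcl2a1b encodes an A1 protein, an anti-apoptotic member of leukocytes. It read 2.59, 2.21, 2.41, 2.24 and 2.31 on p53-null arrays, against 1.80, 1.87, 1.97, 2.01 and 1.97 on wild-type arrays. The groups did not overlap, as for 9.31% of all genes. Neither did those of Bcl2l13, higher in p53-null lung, and Bnip3l, lower, which were not called. For Bcl2a1b the values follow. The difference was 0.43 ± 0.09 (adjusted p = 0.0283), or 1.35-fold. The A1 genes are near-identical copies and their probes may share signal, so which copy was read is uncertain, and the call was lost once the GC trend was removed. Bcl2a1c gave 0.40 ± 0.12 (adjusted p = 0.0689).

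The other tested family genes were not past the threshold. Among BH3-only genes, Bik gave 0.48 ± 0.15 (adjusted p = 0.0723) and Bmf 0.39 ± 0.13 (adjusted p = 0.0829), and on both wild-type array 5 lay within the p53-null range. Other Bmf probes gave 0.45 ± 0.34 and 0.10 ± 0.13. Of the less studied relatives, Bcl2l12 gave 0.42 ± 0.16, Bcl2l14 0.40 ± 0.14 (0.56 ± 0.18 on its other probe) and Bcl2l13 0.14 ± 0.064. The mitophagy receptors Bnip3l and Bnip3 gave -0.29 ± 0.079 (adjusted p = 0.0556) and -0.18 ± 0.075 (adjusted p = 0.154), but a second Bnip3l probe gave 0.08 ± 0.11. The protective genes Bcl2l2 and Bcl2l10 gave -0.10 ± 0.13 and -0.10 ± 0.17, with a second Bcl2l2 probe at 0.30 ± 0.14 (adjusted p = 0.190 over all probes), and Bok, a relative of Bax and Bak1, gave -0.0045 ± 0.12. Hrk, a BH3-only gene, had no array with signal well above background. The 12 had a median of 0.26, against 0.050 for all tested genes, and without wild-type array 5, 6 were higher and 1 lower, in a fit that called 17.1% of all genes higher and 14.3% lower.

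Downstream of the BCL2 family, 1 of 20 mitochondrial apoptosis genes passed, near the 7.47% of all genes. Htra2, a mitochondrial protease that binds inhibitor of apoptosis proteins, read 2.87, 2.82, 3.11, 2.80 and 3.09 on p53-null arrays, against 2.56, 2.37, 2.34, 2.53 and 2.80 on wild-type arrays. Only wild-type array 5 reached the lowest p53-null array. The difference was 0.42 ± 0.11 (adjusted p = 0.0498). The call was lost once the GC trend was removed. The 20 genes had a median of 0.13 and ran from -0.24 to 0.42, and without wild-type array 5, 4 were higher and 3 lower, against 31.3% of all genes called.

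**Figure D5:**
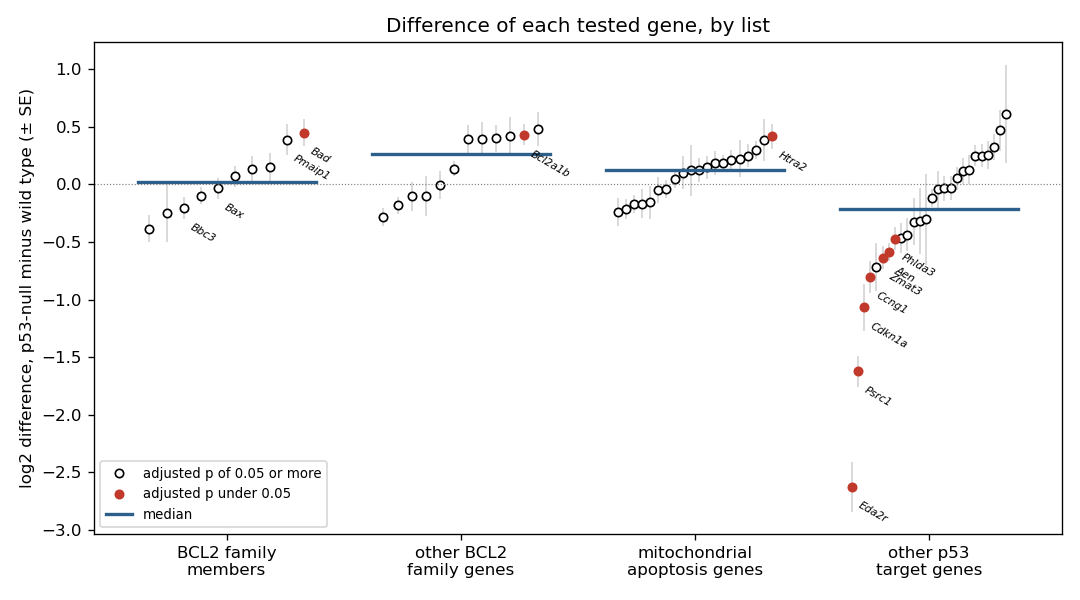
Log2 difference, p53-null minus wild type ± SE, of each tested gene in 4 lists, sorted within each list; filled red points have adjusted p under 0.05, open points do not, and blue lines are medians. The BCL2 members run from -0.39 to 0.45 with Bax near 0, while the other p53 target genes reach -2.62.

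The genes whose pattern over the 10 arrays was most like that of Bad were Gpatch3, Mus81 and Mrpl37, with root mean square differences of 0.075, 0.078 and 0.081 log2 units from Bad, whose own root mean square deviation was 0.279. Gpatch3 differed by 0.50 ± 0.098 (adjusted p = 0.0244), Mus81, an endonuclease subunit, by 0.46 ± 0.10 (adjusted p = 0.0323), and Mrpl37, a mitochondrial ribosomal protein, by 0.39 ± 0.13 (adjusted p = 0.0965). They were picked from the tested genes for likeness to the profile of the Bad probe A_52_P614762, so similar differences follow from the choice. Whether that probe reads Bad mRNA could not be settled. This likeness is a description over 10 arrays.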

How the data were processed

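Total RNA of whole lung was labelled with Cy3 for Agilent arrays of 1 colour, per the labels' protocols. Per the submitters' processing notes the scans were read with Agilent Feature Extraction 9.5. Per the file headers, background has been subtracted from the deposited intensity. The intensity of the series' value table equalled that of the deposited scanner files.

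From each log2 intensity the 75th percentile of its array (43379 spots, controls excluded) was subtracted, outlier-flagged spots were left out and spots of a probe averaged. A gene was its brightest probe, and a feature entered the test in limma 3.58.1 (R 4.3.3) if 5 or more of the 10 arrays had it well above background. Of 41174 probes, 22944 were named by accession, 6664 by symbol and 3108 by synonym through a GRCm38.p6 table, and 8458 kept the file's name. Probe positions are those of the files (mm7). Promoters are RefSeq's, and those on chromosome 18, Pmaip1 included, were not searched.

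The members and all gene lists were chosen with earlier results of these data known. Named genes are the members, Trp53, every other BCL2 family gene, up to 4 called genes of each list by smallest p, and the 3 nearest patterns of called members; Ccng1 and Cdkn1a were added after their values were seen. A marker score is the mean of centred log2 signals. Replicate numbers did not pair the arrays: same-numbered arrays correlated at -0.22 to 0.0001 in their deviations. On simulated data for this comparison (20620 genes), 38.8% of 67 genes changed 1.5-fold, 62.7% of 67 changed 2-fold and 84.8% of 66 changed 4-fold were recovered, with 9 false calls. Alternatives covered background, scaling, filter, probe choice, GC trend, slide, the day of scanning, replicate number, the variance model, weights for arrays, threshold and arrays left out.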

Additional observations from a re-analysis of the deposited data

Results flagged for a closer look

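In 4 of the 46 groups examined 1 array lay far from the other 4 of its genotype by Dixon's criterion, which chance meets in about 1 in 20 groups. Bbc3 read 2.30 in p53-null array 3, where the nearest p53-null array read 2.60. The plus-strand Bad probe A_51_P419364 read -3.91 in wild-type array 5, against -4.51 in the nearest wild-type array. The B cell marker score was 1.32 in p53-null array 1 and 0.55 in the nearest p53-null array. The skeletal muscle marker score was 3.97 in wild-type array 2 and -1.12 in the nearest wild-type array. The squamous epithelial marker score was not counted among the 4, yet an array of each genotype also met the criterion, a gap above 0.71 of the range. It was 5.33 in wild-type array 2 and -0.56 in the nearest wild-type array. In p53-null array 5 it was 4.10, against -0.65 in the nearest p53-null array.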

How the results depend on the processing

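Bad was called with all 10 arrays and 1 member was called with quantile normalization, with the series' value table and with genes above background on all 10 arrays. A trended, robust variance also called 1, but Mcl1 in place of Bad. No member was called after normexp background, median scaling, no filter, the mean of a gene's probes, GC removal, slide as random or fixed block, slide range or scan day as block, without the 3 arrays with skeletal muscle genes, within the lower slide range or at a threshold of 0.01; 0 were called with the replicate block. Array weights called 3, GC removal without wild-type array 5 called 3 (chosen after seeing the data, as was the lower slide range), and a threshold of 0.1 called 2. Each of these settings also called more of all genes, as counted below, and the members were not tested against those shares. Leaving out 1 array gave 0 to 3 members, and Bad kept its call without wild-type array 5 alone. The 3 were called without wild-type array 5, where 31.3% of all genes passed.

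Of probes, 1 was called in the fit of all 10 arrays, 0 after median scaling, GC removal, slide range block, replicate block, without the muscle arrays or within the lower slide range, 6 with GC removed and wild-type array 5 left out, and 0 to 8 with 1 array left out. The 8 were called without wild-type array 5, where 30.7% of all probes passed. Over all genes, 1578 passed with all 10 arrays. Counts were 581 with median scaling, 538 unfiltered, 998 with the mean of probes, 715 with GC removed and 0 with slide as fixed block. They were 697 with slide range and 322 with scan day as block, and 26 with the replicate block. Without the muscle arrays 10 passed, and within the lower slide range 16. Of 21122 tested genes, array weights called 6517, GC removal without wild-type array 5 called 4645 and a threshold of 0.1 called 3526. A threshold of 0.01 called 56, and leaving out 1 array gave 192 to 6617. At an unadjusted p under 0.05, 5824 genes passed in limma.

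Signs turned for some members. Bax went to 0.083 with slide as fixed block, 0.020 with array weights and 0.038 without wild-type array 5 (-0.072 to 0.038 over the fits with 1 array left out). Bak1 went to -0.10 with the mean of probes, -0.11 with GC removed, -0.082 with the slide block and -0.22 with GC removed and wild-type array 5 left out. Bcl2l11 went to 0.13 with the mean of probes. With the slide block, which rests on 1 pair of arrays, Bcl2l1 went from -0.25 to 0.043 and Bid from 0.15 to -0.057. The cause was not tested. Replicate numbers did not pair the arrays. The median of all genes was 0.050, and 0.012, -0.019 and 0.052 under quantile, median and normexp processing. Precision is limited by 5 arrays per group.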
